A study of Homo sapiens with 4 samples.

Results

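The clustered protocadherin genes lie side by side on human chromosome 5 in 3 arrays, PCDHA, PCDHB and PCDHG. Their chromatin was examined here through the ATAC-seq peaks whose summit falls between positions 140150000 and 140900000 of chromosome 5 in the hg19 build. Within this region of 750 kb, peaks were counted per array by summit position, from 140.16 to 140.39 Mb for PCDHA, from 140.43 to 140.63 Mb for PCDHB and from 140.71 to 140.89 Mb for PCDHG. The region held 105 of 191905 peaks listed for vehicle and 124 of 161535 peaks listed for GSK2879552 on chromosomes 1 to 22, X and Y. ATAC-seq marks DNA that a transposase can reach. LNCaP cells, an androgen-sensitive prostate cancer line, were given either vehicle or GSK2879552, a compound that blocks LSD1 (KDM1A), an enzyme that removes methyl groups from histones. The labels state 50 µM for 4 hours in medium with 5% CSS, in a text that is the same for all samples, and growth in 10% FBS. Each condition had 1 library run on 2 lanes and 1 peak list, so no value has a replicate and no test between conditions was possible. All intervals cover counting error only. Gene positions in hg19 were not used here, so peaks are named by array and position, and the cell line was not checked against marker genes.

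Clustered protocadherins are cell adhesion proteins of the cadherin superfamily, best known from neurons, where each cell uses its own small choice of them as a surface identity. In the PCDHA and PCDHG arrays each variable exon has its own promoter and is spliced to constant exons shared by the array, while PCDHB genes are single exons. Promoter choice depends on the insulator protein CTCF, on cohesin and on DNA methylation. Most of these promoters carry a short conserved element with the core CGCT, which CTCF binds, and distal enhancers lie downstream of the arrays. The last members of the PCDHA and PCDHG arrays, called C-type, are used by most neurons rather than by choice.

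The promoters are shown first because they are what distinguishes these arrays from other gene-rich stretches. The RefSeq gene table lists 53 protein-coding members, of which 15 are PCDHA, 16 PCDHB and 22 PCDHG genes, and promoter sequences of GRCh38.p14 were at hand for 47 of them. PCDHA3, PCDHA13, PCDHB6, PCDHB11, PCDHGA12 and PCDHGC5 have no entry. Each sequence runs from 250 bases before to 50 bases after the annotated start, on the plus strand of chromosome 5. The lists use hg19, so which of these promoters lies under which peak was not determined. The word of 9 bases found in the most promoters of an array was GATGTCGCT for PCDHA, GGTGGCGCT for PCDHB and GCGCCGCTG for PCDHG, and all 3 words contain CGCT. The PCDHA word occurred in 9 of 13 promoters, the PCDHB word in 13 of 14 and the PCDHG word in 10 of 20, always on the coding strand. On either strand the same words occurred in 0.105%, 0.501% and 1.28% of 35116 promoters of all genes. The core CGCT alone was in 12 of 13, 14 of 14 and 20 of 20 promoters on the coding strand, against 54.3% of all promoters, and on either strand 70.0% of all promoters hold it. These words were chosen for being frequent in the arrays, so their counts are a description. A pattern written for the binding site of CTCF (CC, any 3 bases, AG, any 2 bases, then GGC, on both strands) matched 1 of the 47, PCDHB9, against 10.6% of all promoters, which says only that these letters are rare in these windows. The first gene listed for each array is given whole, with the word of its array in capitals, and PCDHB1 is the 1 PCDHB promoter that lacks it.
PCDHA1: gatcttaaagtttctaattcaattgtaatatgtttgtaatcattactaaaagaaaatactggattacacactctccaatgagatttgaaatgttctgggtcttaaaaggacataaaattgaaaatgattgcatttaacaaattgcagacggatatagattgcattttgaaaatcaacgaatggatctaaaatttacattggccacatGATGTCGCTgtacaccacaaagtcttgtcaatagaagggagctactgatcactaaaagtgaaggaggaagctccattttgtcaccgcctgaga
PCDHB1: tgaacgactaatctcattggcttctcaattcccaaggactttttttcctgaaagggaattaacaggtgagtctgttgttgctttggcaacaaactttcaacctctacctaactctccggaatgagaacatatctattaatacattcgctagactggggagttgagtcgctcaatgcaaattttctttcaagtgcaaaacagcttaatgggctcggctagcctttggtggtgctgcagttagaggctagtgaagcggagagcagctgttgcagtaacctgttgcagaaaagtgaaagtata
PCDHGA1: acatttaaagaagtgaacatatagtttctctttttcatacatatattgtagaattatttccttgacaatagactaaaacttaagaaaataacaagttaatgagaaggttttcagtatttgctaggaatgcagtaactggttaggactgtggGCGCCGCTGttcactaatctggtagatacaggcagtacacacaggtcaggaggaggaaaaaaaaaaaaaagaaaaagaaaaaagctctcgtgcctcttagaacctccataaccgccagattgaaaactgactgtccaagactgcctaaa

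The bases around the word are shown next for promoters chosen because they hold it. Promoters that lack the word are not shown here, so the likeness of a whole array cannot be read from them. The next 4 members that hold it are given for each array as 30 bases, with the word in capitals. The distance from the word to the annotated start was 34 to 77 bases in PCDHA and 35 to 90 bases in PCDHG. In PCDHB it ran up to 75 bases, with the word 7 bases from the start in PCDHB5 and across the start in PCDHB8.
PCDHA2: tttagccacatGATGTCGCTgtccaccata
PCDHA4: tggagccacatGATGTCGCTctttaccaca
PCDHA5: ttcatccacatGATGTCGCTggacaccgga
PCDHA6: tggagccgcatGATGTCGCTgtctaccatg
PCDHB2: aagagacgcggGGTGGCGCTgcagccttag
PCDHB3: agcgaacgcatGGTGGCGCTgttgactaag
PCDHB4: tcaagacgcagGGTGGCGCTgcaggctaag
PCDHB5: ttaggacgcctGGTGGCGCTgcaggctaag
PCDHGB1: acaacctctggGCGCCGCTGtcgaccaaaa
PCDHGA7: aaggactcacaGCGCCGCTGttcaccaacc
PCDHGB4: gctgactctggGCGCCGCTGttggccaaag
PCDHGA8: taggactgtaaGCGCCGCTGttcacctact

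The promoters within an array differ in base composition. The 11 numbered PCDHA promoters held 33.7% to 40.3% G and C, whereas PCDHAC1 and PCDHAC2, the C-type members, held 66.0% and 63.0% and lacked the word. PCDHB promoters held 33.3% to 46.3%, PCDHGA promoters 32.3% to 44.3% and PCDHGB promoters 43.0% to 51.3%. PCDHGC3 and PCDHGC4, the C-type PCDHG members with a sequence, held 59.0% and 60.7%. The median over all promoters was 58.7%.

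In PCDHA, and slightly in PCDHB, more regions were listed as open with GSK2879552 than with vehicle, against the direction of the chromosomes as a whole. In PCDHG slightly fewer were listed. PCDHA had 29 vehicle and 44 GSK2879552 peaks, a ratio of 1.52. In PCDHB there were 39 and 43, a ratio of 1.10, and in PCDHG 32 and 30, a ratio of 0.938. The remaining 5 vehicle and 7 GSK2879552 peaks lay outside the 3 arrays. Over the region the ratio was 1.18, and over all compared chromosomes it was 0.842. Among peaks with a −log10 q of 5 or more, as deposited, PCDHA had 12 and 14, PCDHB 19 and 18 and PCDHG 25 and 16. The higher number with GSK2879552 in PCDHA and PCDHB thus came mostly from peaks below that level. Over all chromosomes 143829 vehicle and 101402 GSK2879552 peaks passed it, 74.9% and 62.8% of the lists. Past that level, too, PCDHA did not have fewer peaks with GSK2879552, unlike the whole list, though its counts are small. The covered lengths went the same way as the numbers of all peaks. PCDHA peaks covered 6773 bp with vehicle and 9749 bp with GSK2879552, PCDHB peaks 8678 bp and 10267 bp, and PCDHG peaks 8624 bp and 7203 bp. Over all chromosomes the GSK2879552 peaks covered 0.751 times the vehicle length.

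**Figure D1:**
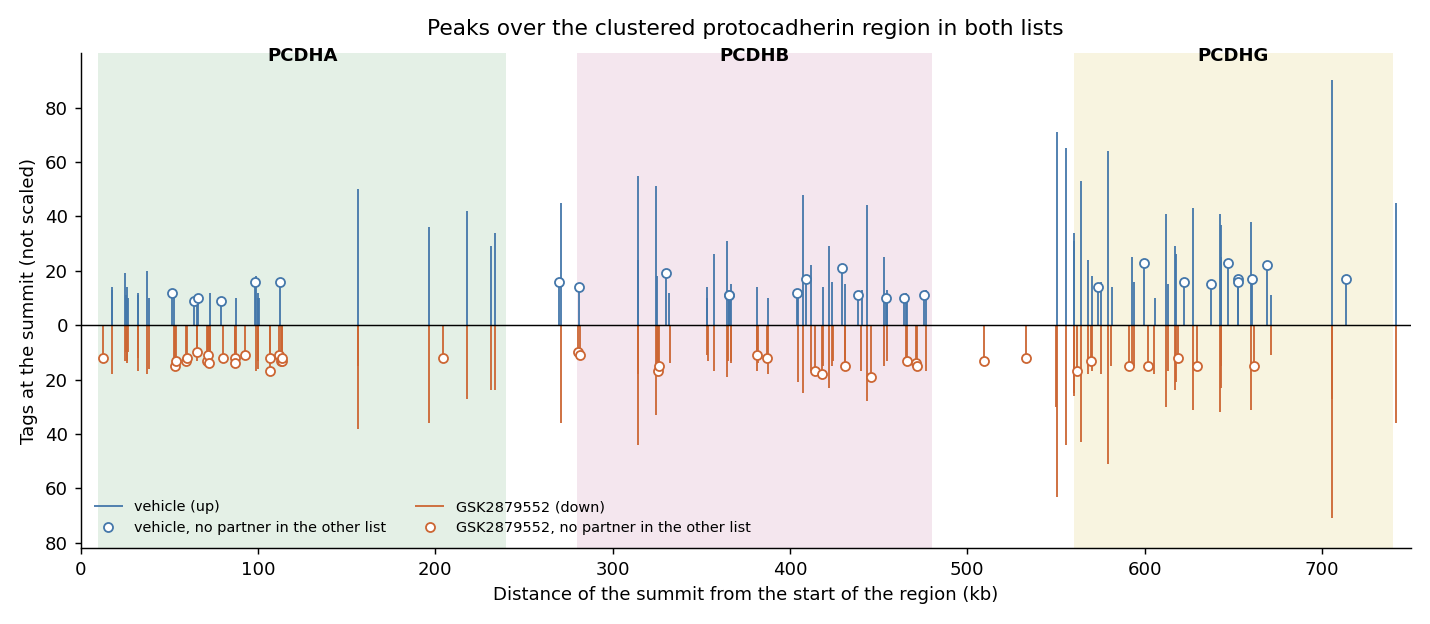
Peaks of the protocadherin region by distance of the summit from the start of the region (kb), with the number of tags at each summit (not scaled) drawn upward for vehicle and downward for GSK2879552, and open circles on peaks with no overlapping peak in the other list. The left part of PCDHA holds only short lines in both lists and 19 open circles for GSK2879552, while lines over 20 tags begin at its right.

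The neighbouring DNA did not show this excess. The 750 kb before the region held 84 vehicle and 70 GSK2879552 peaks, a ratio of 0.833, and the 750 kb after it held 89 and 74, a ratio of 0.831. The flanks held stronger peaks, however, with a median of 30.5 and 33 vehicle tags at the summit against 16 in the region. Neither the flanks nor the windows below were matched to the region for peak strength. Among 3472 other windows of 750 kb with at least 20 vehicle peaks, the median ratio was 0.826, and 73 windows, or 2.10%, reached 1.18. For windows of 200 kb, near the size of an array, 5 of 2786 (0.179%) reached the ratio of PCDHA, 148 (5.31%) that of PCDHB and 691 (24.8%) that of PCDHG. PCDHA therefore stood high among windows of its size, PCDHB less so, and PCDHG was within the common range.

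**Figure D2:**
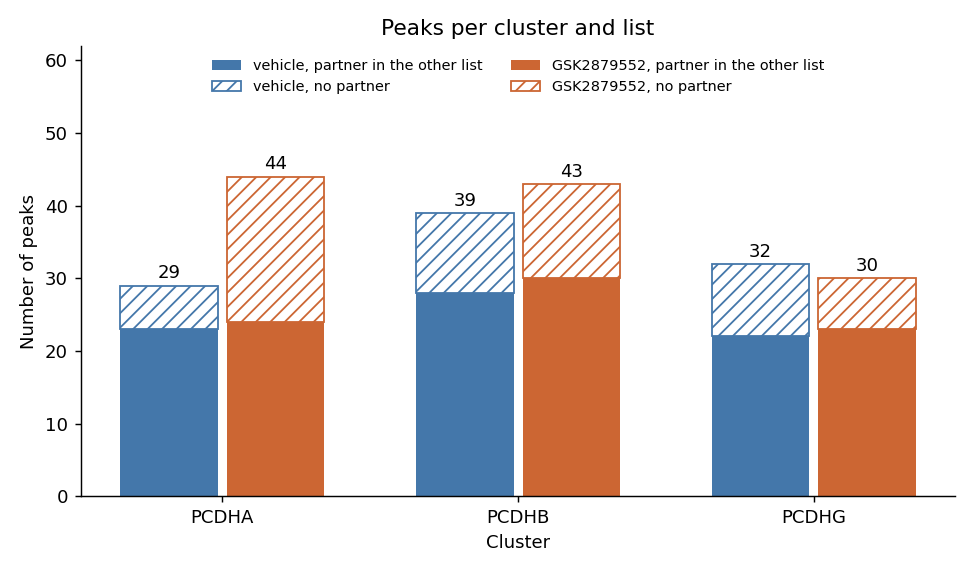
Number of peaks per array and list, split into peaks that overlap a peak of the other list by at least 1 bp (filled) and peaks that do not (hatched). PCDHA has 44 GSK2879552 peaks against 29 vehicle peaks, of which 20 and 6 have no partner.

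The peaks of PCDHA and PCDHB were weak. Tags at the summit, recovered from the deposited fold and −log10 p, had a median of 12 in PCDHA and 14 in PCDHB with vehicle, against 23 in PCDHG and 22 over all chromosomes. With GSK2879552 the medians were 13, 15 and 18, against 20 over all chromosomes. Peaks of at most 15 tags made up 65.5% of the vehicle list in PCDHA, 61.5% in PCDHB and 18.8% in PCDHG, against 28.2% over all chromosomes. Local background differed as well. It stood at the genome-wide level for 65.5% of vehicle peaks in PCDHA, 46.2% in PCDHB and 9.38% in PCDHG, against 40.3% over all chromosomes. The genome-wide background was 2.31 tags for vehicle and 2.72 for GSK2879552, so the second library was 1.18 times as deep, and tag ratios below are divided by that number.

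Peaks with no partner were distributed unevenly between lists. Of all vehicle peaks 38.5% had no overlapping GSK2879552 peak. That was so for 6 of 29 in PCDHA, 11 of 39 in PCDHB and 10 of 32 in PCDHG. Of all GSK2879552 peaks 23.5% had no overlapping vehicle peak, against 20 of 44 in PCDHA, 13 of 43 in PCDHB and 7 of 30 in PCDHG. The PCDHA share, 45.5%, left 54.5% shared (exact 95% binomial interval 38.8 to 69.6), below the 76.5% of the whole list. PCDHB and PCDHG, with 69.8% (53.9 to 82.8) and 76.7% (57.7 to 90.1) shared, had intervals that include that share. Among GSK2879552 peaks of at most 15 tags, 57.1% of the whole list had no partner, and in PCDHA it was 19 of 32, close to that share. PCDHB had 9 of 24 and PCDHG 6 of 11 without one. Such weak peaks made up 72.7% of the GSK2879552 list in PCDHA, 55.8% in PCDHB and 36.7% in PCDHG, against 32.5% of the whole list.

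Weak vehicle peaks were shared more often in PCDHA and PCDHB than over all chromosomes. Over all chromosomes 77.3% of vehicle peaks of at most 15 tags had no overlapping GSK2879552 peak. In PCDHA 4 of 19 had none, so 78.9% were shared (54.4 to 93.9), against 22.7% of the whole list. In PCDHB 16 of 24 were shared, 66.7% (44.7 to 84.4), and in PCDHG 4 of 6, whose interval of 22.3 to 95.7 includes the share of the whole list. The flanking 750 kb on either side held 15 such peaks each, of which 3 and 1 were shared. Among 2905 other windows of 750 kb with at least 10 such peaks, 5 reached the 71.4% of the whole region. In PCDHA the overlap was loose, however. With a reciprocal overlap of 50%, 2 of 19 weak PCDHA vehicle peaks kept a partner, 10.5% (1.30 to 33.1), against 15.2% of the whole list. Summits within 250 bp gave 14 of 19 in PCDHA. Under the reciprocal rule 8 of 24 weak PCDHB vehicle peaks kept a partner, 33.3% (15.6 to 55.3). Among pairs with under 30 tags over both lists the summits were a median of 74 bp apart in PCDHA (7 pairs) and 38 bp over all chromosomes. Most weak vehicle peaks of PCDHA thus had a GSK2879552 peak nearby, with borders that seldom matched. Of the GSK2879552 peaks of at most 15 tags in PCDHA, 13 of 32 (40.6%) overlapped a vehicle peak, close to the 42.9% of the whole list. Of the 20 GSK2879552-only peaks of PCDHA, 10 lay within 1000 bp of a vehicle peak and the farthest was 7357 bp away.

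**Figure D3:**
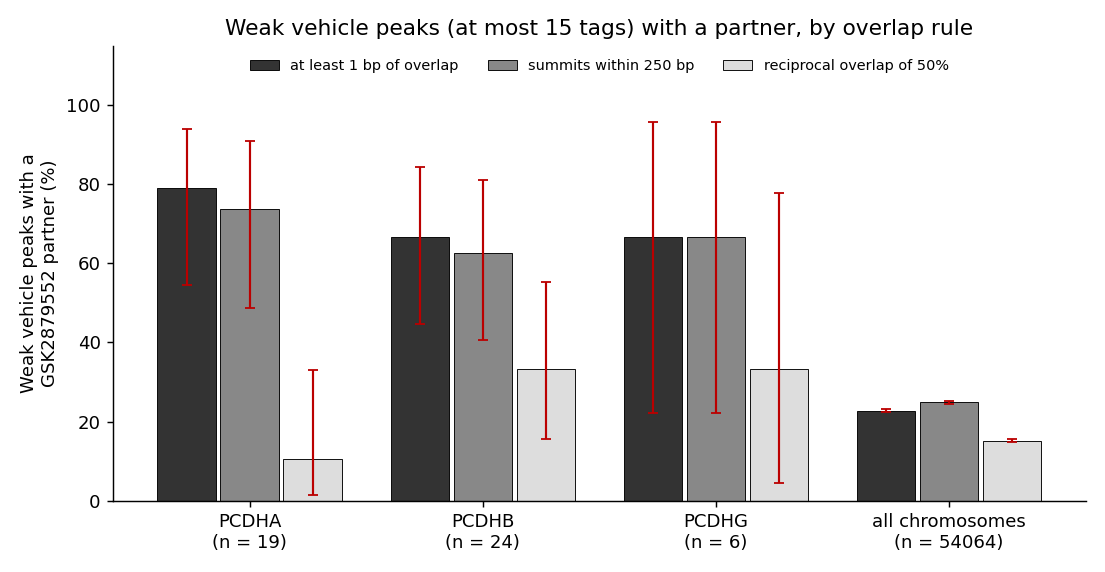
Share of vehicle peaks of at most 15 tags with a GSK2879552 partner, in percent, per array and over all chromosomes, under 3 rules for a partner, with exact 95% binomial intervals in red. PCDHA falls from 78.9% at 1 bp of overlap to 10.5% at a reciprocal overlap of 50%.

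PCDHA fell into a weak stretch and a strong stretch, separated by 42167 bp with no peak in either list (positions 140263830 to 140305996, the longest such stretch of the array). Before it, 24 vehicle peaks carried 9 to 20 tags and 37 GSK2879552 peaks carried 10 to 18. After it, 5 vehicle peaks carried 29 to 50 tags and 7 GSK2879552 peaks 12 to 38. Of the 20 GSK2879552-only peaks 19 lay in the weak stretch, as did all 6 vehicle-only peaks. This division was made after the values were seen.

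The strong stretch of PCDHA stood close to the genome's value. Its first peak, at 140305997 to 140306672, had 50 vehicle tags (exact 95% Poisson interval 37.1 to 65.9) and was listed with GSK2879552 as 2 peaks of 38 and 15 tags. The peak at 140367658 to 140368074 went from 42 to 27 tags, which scaled to 0.547 with an exact binomial interval of 0.324 to 0.908, the lower of the 2 PCDHA pairs whose tags add up to 60 or more. The widest PCDHA peak, at 140345856 to 140346804, spanned 949 bp with vehicle and 852 bp with GSK2879552. It had 36 tags in both lists, a ratio of 0.851 (0.521 to 1.39), the higher of those 2 values. Its interval overlaps that of the peak before it, so their order is not resolved at this depth. The peaks at 140383761 to 140384170 and 140381490 to 140381761 went from 34 to 24 and from 29 to 24 tags. Over the 4 pairs of this stretch the ratio was 0.670 (0.517 to 0.865), next to 0.683 over all 110134 pairs of the genome.

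In the weak stretch the tag ratio was higher. Its 10 pairs summed to 135 vehicle and 147 GSK2879552 tags, a ratio of 0.926 (0.728 to 1.18). The 7 PCDHA pairs with under 30 tags had 10 to 13 tags with vehicle and 12 to 17 with GSK2879552, and in 6 of them the GSK2879552 number was the larger before scaling. Their scaled ratio, 1.08 (0.794 to 1.47), includes 0.865, the value of all 10240 pairs of that strength, and a pair this weak is seen only where both lists passed their threshold. A difference from other weak pairs was therefore not detectable at this depth. The GSK2879552-only peak with the most tags in PCDHA was at 140256863 to 140257080, with 17 tags (9.90 to 27.2) and the nearest vehicle peak 5169 bp away. A second one, at 140256596 to 140256758 with 12 tags, lay beside it. The vehicle-only peaks with the most tags were 2 of 16 tags, the first of them at 140248438 to 140248584, with a GSK2879552 peak 491 bp away. At the depth of the vehicle library the 20 GSK2879552-only peaks would carry 8.51 to 14.5 tags, and the vehicle list starts at 8 tags. Of these peaks 15 lay on the genome-wide background, and all 15 reach that number after scaling. Nearly all such peaks do, 99.0% of 19598 over all chromosomes, so this does not set PCDHA apart. The tags of the vehicle library at these positions are not given by its list.

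PCDHB held the most vehicle peaks of the 3 arrays and the lowest paired ratio of the region. The peak at 140464088 to 140464330 led with 55 vehicle tags (41.4 to 71.6) and 44 GSK2879552 tags, a scaled ratio of 0.680 (0.447 to 1.03), the highest of the PCDHB pairs with at least 60 tags. The peak at 140557236 to 140557670 had 48 and 25 tags, the lowest of them at 0.443 (0.262 to 0.733). It was the 1 pair of the region at least 2-fold lower after scaling, a level that 7.1% of all pairs reached. The peaks at 140474097 to 140474688 and 140593351 to 140593688 went from 51 to 33 tags and from 44 to 28 tags, ratios of 0.550 (0.344 to 0.869) and 0.541 (0.325 to 0.889). Over these 4 pairs the ratio was 0.558 (0.444 to 0.700), against 0.661 over all pairs with 60 to 119 tags, which lies inside the interval. The widest vehicle peak, 651 bp at 140514693 to 140515343 with 31 tags, was listed with GSK2879552 as 2 peaks of 19 and 13 tags.

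Weak PCDHB pairs had higher ratios than strong ones, with 0.969 (0.718 to 1.31) over 7 pairs with under 30 tags. This interval includes 0.865, the value of all 10240 pairs of that strength. The peak at 140537555 to 140537718, 1 of these 7 pairs, had 18 GSK2879552 tags over 10 vehicle tags. The peak at 140554346 to 140554480 had 21 over 13, which places it among pairs of 30 to 59 tags. Both were chosen for naming after their values were seen. Their scaled ratios, 1.53 (0.670 to 3.71) and 1.37 (0.657 to 2.99), have intervals that include 1. The GSK2879552-only peak with the most tags in the whole region was in PCDHB, at 140595578 to 140595738, with 19 tags (11.4 to 29.7) and a vehicle peak 1889 bp away. The vehicle-only peak with the most tags in PCDHB, at 140579068 to 140579465, had 21 tags (13.0 to 32.1), with a GSK2879552 peak 1267 bp away. The widest GSK2879552 peak spanned 795 bp at 140481541 to 140482335 and had 14 tags, against 12 in its vehicle partner of 108 bp.

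PCDHG peaks carried the most summit tags of the 3 arrays by their median, although PCDHB had more peaks and more covered bases in both lists. Its last strong peak, at 140855229 to 140856365, was the strongest of the region in both lists. It had 90 vehicle tags (72.4 to 111) over 1137 bp, and the GSK2879552 list held 2 peaks there, of 71 and 27 tags. The peak at 140729529 to 140730056 had 64 and 51 tags, a ratio of 0.678 (0.460 to 0.995), and that at 140713870 to 140714167 had 53 and 43, a ratio of 0.690 (0.451 to 1.05). Next came 140777363 to 140777946 with 43 and 31 tags, and 140762161 to 140762765 with 41 and 30 tags. The latter was also the widest GSK2879552 peak of the array, at 578 bp. These paired values fell within a narrow range. Among the 8 pairs with at least 60 tags the lowest ratio was 0.529 (0.300 to 0.914) at 140792864 to 140793072, with 37 and 23 tags. The highest was 0.694 (0.417 to 1.15) at 140809995 to 140810291, with 38 and 31 tags.

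Vehicle-only peaks were mostly farther from the other list in PCDHG than in PCDHA. The 10 vehicle-only peaks of PCDHG carried 14 to 23 tags, 8 of them passed a −log10 q of 5, and the nearest GSK2879552 peak was a median of 3260 bp away. In PCDHA the 6 vehicle-only peaks carried 9 to 16 tags and the median distance was 539 bp. For GSK2879552-only peaks the median was 1408 bp in PCDHG and 956 bp in PCDHA, but the farthest were 1854 bp and 7357 bp away. No value over all chromosomes is set beside these distances. The vehicle-only peaks with the most tags in PCDHG were 2 of 23 tags (14.6 to 34.5), the first of them at 140749667 to 140749819, and the GSK2879552-only one, at 140711937 to 140712375, had 17 tags (9.90 to 27.2).

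Strong peaks also stood outside the 3 arrays. The peak at 140699811 to 140700803, between PCDHB and PCDHG, had 71 vehicle tags and was listed with GSK2879552 as 2 peaks of 30 and 63 tags. The peak at 140705684 to 140706251 went from 65 to 44 tags, a ratio of 0.576 (0.384 to 0.857). The other pairs outside the arrays were a peak between PCDHA and PCDHB, at 140420723 to 140421017, and a peak just past the PCDHG border, at 140891892 to 140892187, and each went from 45 to 36 tags. The RefSeq table places SLC25A2, a mitochondrial ornithine carrier, and TAF7, a subunit of the transcription factor TFIID, between the PCDHB and PCDHG arrays, and DIAPH1, a formin that builds actin filaments, after PCDHG. Which of the peaks belong to them was not determined. The border of PCDHG falls beside a peak, since the first peak counted in it, at 140709934 to 140710093 with 31 vehicle tags, starts before 140.71 Mb and has its summit just past it.

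In paired peaks the arrays had ratios near that of the genome. The scaled ratio of summed tags was 0.795 (0.668 to 0.946) over 14 PCDHA pairs, 0.709 (0.618 to 0.812) over 20 PCDHB pairs and 0.690 (0.612 to 0.779) over 21 PCDHG pairs, and each interval includes the 0.683 of all pairs. Of all pairs 45.5% were at least 1.5-fold lower with GSK2879552. The count was 3 of 14 in PCDHA, 7 of 20 in PCDHB and 8 of 21 in PCDHG. A scaled ratio above 1 was found in 5.83% of all pairs, and in 4 of 14, 5 of 20 and 1 of 21 pairs of the arrays. That share rises as peaks get weaker, to 28.2% of all pairs with under 30 tags, and the arrays had 7 of 17 such pairs above 1. Of all pairs with 30 to 59 tags 5.81% were above 1, against 3 of 24 in the region. Those 3 were among the 9 PCDHB pairs of that strength.

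**Figure D4:**
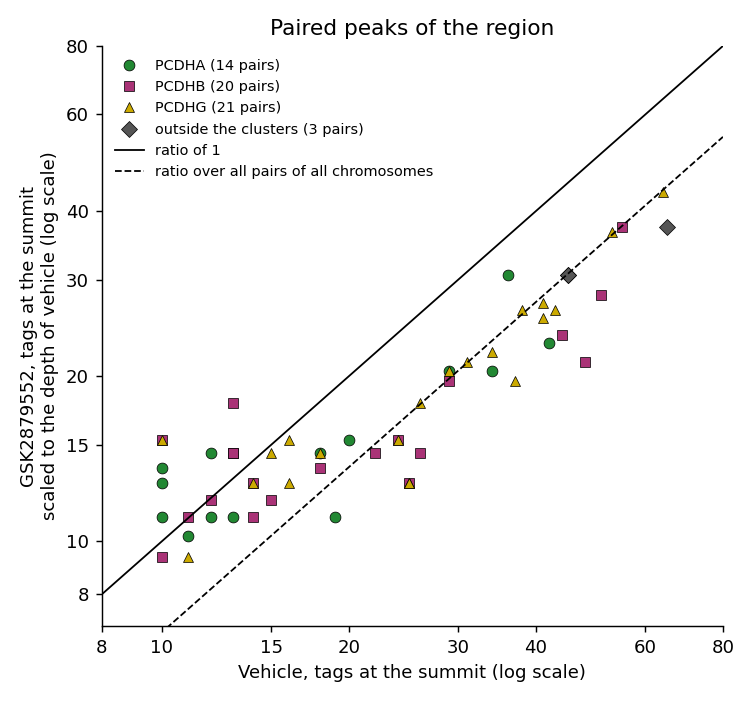
Tags at the summit of each pair of the region with vehicle (x axis) and with GSK2879552 scaled to the depth of vehicle (y axis), both on log scales, with lines at a ratio of 1 and at 0.683, the ratio over all pairs of all chromosomes. Above 30 vehicle tags the points lie near or below the dashed line, except the PCDHA pair of 36 and 36 tags, and the points above the solid line all have under 20 vehicle tags; pairs with equal values overlie each other.

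Some vehicle peaks of the region were split in the other list. A vehicle peak overlapped several GSK2879552 peaks in 4 of 29 cases in PCDHA, 4 of 39 in PCDHB and 1 of 32 in PCDHG, and in 3.15% of the whole list. The reverse, a GSK2879552 peak over several vehicle peaks, was found in 3 of 44, 2 of 43 and 0 of 30 cases, and in 0.665% of the whole list. With 1 library per condition, a difference between libraries and an effect of the treatment cannot be told apart. Weak signal and local background differed between the arrays as given above, and their part in the counts was not tested.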

How the data were processed

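Peak lists of 1 ATAC-seq library per condition, each named by the labels of both lanes, were compared. Per the submitters' processing notes, which give no order or role, MACS2 2.1.2, BWA 0.7.2 and SAMtools 0.1.18 were used, and hg19 (GRCh37) was the build. Trimming, removal of duplicates and a shift of reads were not given in the sources used here. For every peak the deposited lists hold borders, a summit offset, a score, a fold, a −log10 p and a −log10 q. The fold was read as summit tags plus 1, divided by the background of the own library plus 1. The score deposited by the authors was not used further. The total of tags per library is not given.

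Summit tags were recovered from the deposited fold and −log10 p as the whole number whose Poisson tail matched within 0.001, which succeeded for 100% of 194551 vehicle and 163735 GSK2879552 rows, and the inversion was tested on simulated data. Tags were scaled by the genome-wide backgrounds. Partners overlapped by at least 1 bp, and pairs were peaks with exactly 1 partner each. Intervals are exact Clopper-Pearson, binomial or Poisson at 95%. Named peaks were the 5 strongest vehicle peaks per array, the widest, the strongest without a partner, the extreme ratios among pairs with at least 60 tags, and the 5 strongest of the region. Array borders came with the definition of the region. Members, lists and rules were chosen with earlier results of these data known. The limit of 15 tags, the windows, the division of PCDHA and the 9-base words were chosen after the lists were seen. Alternatives were other overlap rules, borders, thresholds and scalings. Python 3.11.15, NumPy 2.4.6, pandas 2.3.3, SciPy 1.17.1 and Matplotlib 3.10.9 were used.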

Additional observations from a re-analysis of the deposited data

How the results depend on the processing

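No paired analysis was possible because each condition had 1 library, whose lanes are technical replicates, and for the same reason no replicate could be left out. Of 68 alternative values 51 stayed near the reported one, which means within 1.5 times for a number of peaks and within the 95% interval for a share or a ratio, and no tag ratio crossed 1. Keeping peaks with a −log10 q of 5 or more, their number fell to 12 with vehicle and 14 with GSK2879552 in PCDHA, 19 and 18 in PCDHB, and 16 with GSK2879552 in PCDHG, so the order of PCDHB turned. A reciprocal overlap of 50% lowered the shares with a partner to 34.5% of vehicle and 22.7% of GSK2879552 peaks in PCDHA, 46.2% and 41.9% in PCDHB, and 53.3% of GSK2879552 peaks in PCDHG. It lowered the share of weak vehicle peaks to 10.5% in PCDHA and 24.5% in the region. This rule keeps only peaks of like borders. With that limit on −log10 q, the GSK2879552 share in PCDHG was 93.8%. Without scaling for depth, the tag ratios of PCDHB and PCDHG were 0.833 and 0.812. The unscaled PCDHA ratio was 0.935 (0.786 to 1.11), an interval that includes 1, whereas that of the scaled ratio does not. The PCDHB ratio was 0.558 for pairs of 60 or more tags and 0.597 for pairs past a −log10 q of 5, both of which leave out weak pairs. The cause of the other changes was not tested. The weak shares at 12 and 20 tags, and those under other overlap rules, were added after the data were seen.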

Other observations

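Peaks of the arrays were also joined into groups by distance. Overlapping peaks of the lists always fall in the same group, and no other windows were grouped, so the counts are a description. When peaks of either list within 2000 bp were joined, the weak stretch of PCDHA formed 15 groups with centres 5.12 to 14.5 kb apart (median 7.01 kb), and joining within 3000 bp also gave 15. Of these groups 11 held peaks of both lists, 4 held GSK2879552 peaks only and 0 held vehicle peaks only. The grouping depends on the distance: at 1000 bp there were 16 groups and at 500 bp 23, with 1 and 3 of vehicle peaks only. The RefSeq table lists 13 numbered PCDHA genes in this array. Whether the groups lie at their promoters was not determined, since the gene positions at hand are of another build. PCDHB formed 21 groups at 2000 bp, of which 20 held peaks of both lists, and PCDHG formed 19, of which 14 held both and 5 vehicle peaks only. At 500, 1000 and 3000 bp PCDHB formed 34, 30 and 17 groups and PCDHG 31, 30 and 17. At 500 and at 1000 bp 6 PCDHG groups held GSK2879552 peaks only, against 0 at 2000 bp.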
